A study of Homo sapiens with 16 samples.

Results

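The comparison described here set human pancreatic progenitor cells that had been kept in the actin-depolymerising drug latrunculin B for 24 h (3 libraries) against cells that had been in it for 6 h (3 libraries). These 6 of the 16 RNA-seq libraries of the series were chosen by their sample titles alone, and no measured value entered the choice. All cells came from the human embryonic stem cell line SA121 carrying an NGN3-GFP reporter, a green fluorescent protein reporter for the endocrine factor NEUROG3 (NGN3), and were used on day 19 of differentiation. The drug was given at 0.5 µM in both groups, so the groups differed in time on the drug. The other 10 libraries were untreated cells at 0 h (n = 3), cells given the vehicle DMSO for 24 h (n = 2), and cells given latrunculin B for 3 h (n = 3) or 12 h (n = 2). The sample tags name DMSO for the 0 h cells too, whereas the series text places them before treatment. A vehicle library of 6 h was not analysed here, so the effect of the drug at 6 h could be read only against 0 h. All libraries come from 1 cell line, the sources used here do not say where in the genome the reporter sits, and the labels do not say that replicates came from separate cultures, so the p-values measure the spread between these samples, which may be technical. In RNA from whole cultures, fewer cells of a type and less RNA per cell cannot be told apart.

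Actin filaments carry the contractile tension of a cell, and latrunculin B binds actin monomers and keeps them from joining filaments. Free monomers hold the coactivator MRTF in the cytoplasm, away from its partner SRF at the genes of actin and of the contractile apparatus. YAP, a coactivator of the TEAD transcription factors, is likewise known to lose activity when tension falls. In the embryonic pancreas, NEUROG3 commits progenitors to the endocrine lineage, and Notch signalling from neighbouring cells restrains it.

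The libraries held between 26230793 and 32087206 estimated reads in the 6 h and 24 h groups, and mitochondrial genes took 3.43% to 4.25% of the reads at 6 h and 3.22% to 3.78% at 24 h. Replicates correlated across genes at Pearson's r of 0.984 to 0.985 within the 6 h group and 0.98 to 0.985 within the 24 h group. The spread within the 24 h group was wider than within the 6 h group for several genes described here: replicate 1 had the lowest NEUROG3 and the highest CCN1 of the 24 h group, and replicate 2 the highest NEUROG3 and the lowest CCN1. The progenitor label was checked against PDX1, the factor that defines the pancreatic bud, which stood at 303, 288 and 306 CPM (reads of the gene scaled to the size of the library) in the 6 h libraries and at 222, 302 and 279 CPM in the 24 h libraries. The 2 groups overlapped for PDX1, and the difference did not pass the test (log2 change -0.16 ± 0.10 (SE), adjusted p = 0.222, edgeR). PDX1 does not stand for the other progenitor markers: of the 17 tested, 9 fell between 6 h and 24 h and 1 rose, as described below.

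Between 6 h and 24 h on the drug, 6323 of 16705 genes tested changed (37.9% at an adjusted p under 0.05), with 3169 higher (19%) and 3154 lower (18.9%) at 24 h. A log2 change of at least 1 was reached by 416 of the genes that rose (2.49%) and by 449 of those that fell (2.69%). The 24 h libraries lay all above the 6 h libraries in 4386 genes (26.3%) and all below them in 4456 genes (26.7%). The even split rested on scaling that centres the bulk of the genes: with library sizes alone the median of all genes rose by 0.13 on the log2 scale, 7076 genes were called and 73.8% of them were higher at 24 h, against 50.1% in the scaled fit. The changes below are relative to the bulk of the genes, and the counts of list members between 6 h and 24 h stand against 19% of all genes higher and 18.9% lower.

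Cells without the drug had also spent these hours in culture. Between 0 h and 24 h with vehicle, 42 genes were called (0.251%), 5 higher (0.0299%) and 37 lower (0.221%). The effect of the drug at 6 h against 0 h was called in 7230 genes (43.3%, 22.9% higher and 20.4% lower), and at 24 h against vehicle in 6809 genes (40.8%). The change of the drug effect, that is the difference between 24 h on the drug and vehicle at 24 h minus the difference between 6 h on the drug and 0 h, was called in 3754 genes (22.5%), 1898 higher (11.4%) and 1856 lower (11.1%). Below it is called the change beyond vehicle. Its vehicle part ran from 0 h to 24 h and its drug part from 6 h to 24 h, so changes of untreated cells in the first 6 h enter it. Its count fell to 2333 without replicate 1 of the vehicle group, which leaves a single vehicle library that is assumed to vary like the other groups.

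Genes are called well-expressed here at a mean log2 CPM of at least 3 over the 6 h and 24 h libraries together. A gene low at 6 h could thus pass through its 24 h level, and DLL3, below the cut, rose more (log2 change 4.31). Among well-expressed protein-coding genes whose groups did not overlap, the largest rise was that of NEUROG3 (chr10:69571698-69573422, GRCh38, GENCODE 44). It was at 3.27, 3.41 and 4.23 CPM in the 6 h libraries and at 25.6, 59.8 and 49.5 CPM in the 24 h libraries. All 24 h libraries lay above all 6 h libraries, and the mean rose 12.4-fold (log2 change 3.63 ± 0.34 (SE), adjusted p = 4.67e-06). The next were INSM1, a zinc-finger factor of endocrine precursors (log2 change 3.19), the matricellular gene CCN1 (2.98), the arrestin-domain gene TXNIP (2.78), the matricellular gene CCN2 (2.68) and the homeobox gene NKX2-2 (2.64). The neuronal membrane gene SEZ6L (2.36), the lysosome-associated ELAPOR1 (2.19), the metalloproteinase inhibitor TIMP3 (2.19) and the oestrogen sulphotransferase SULT1E1 (2.03) completed the 10 largest rises. The 10 largest falls were led by FST (chr5:53480626-53487134), which encodes the activin antagonist follistatin. FST was at 68.4, 90.5 and 113 CPM at 6 h and at 15.5, 9.48 and 10.2 CPM at 24 h, with no overlap between the groups (log2 change -2.95 ± 0.30, adjusted p = 7.99e-06). Behind it stood the neurotrophin receptor NTRK2 (-2.71), BRINP1 (-2.49), the semaphorin SEMA3D (-2.44), the glycosyltransferase B3GNT7 (-2.32), the angiotensin receptor AGTR1 (-2.30), the potassium channel KCND2 (-2.28), the nuclear receptor NR2F1 (-2.19), the transporter SLC47A1 (-2.14) and the actin-binding TAGLN (-2.14). Without replicate 1 of the 24 h group the log2 change of KCND2 was -2.91.

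**Figure D1:**
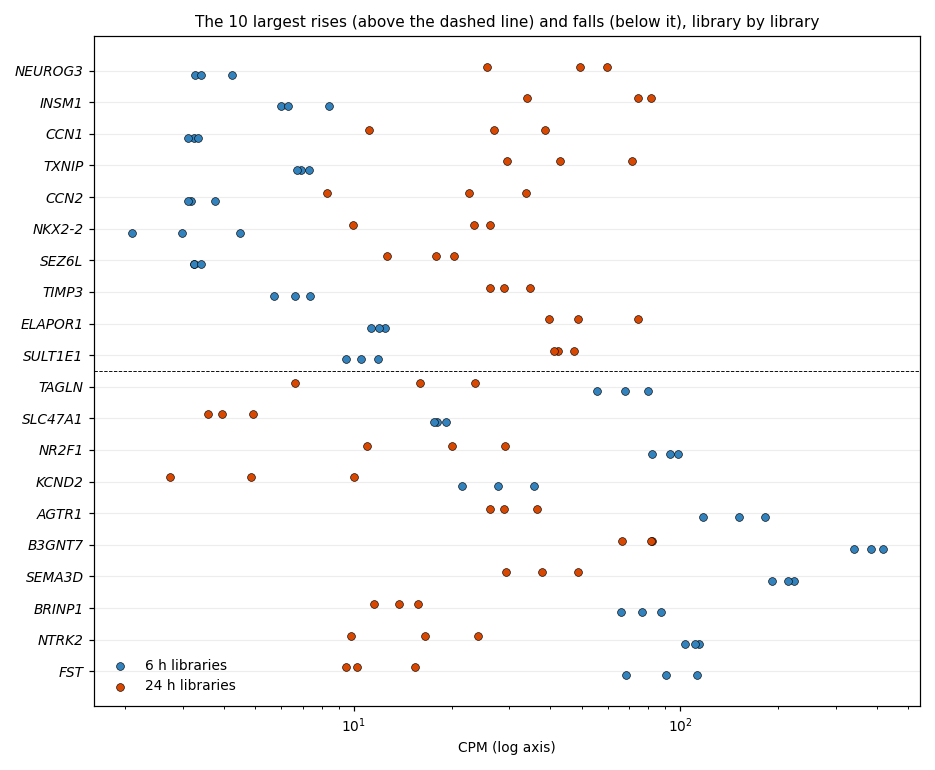
CPM on a log axis in each of the 3 libraries at 6 h (blue) and at 24 h (orange) on latrunculin B, for the 10 genes that rose most and the 10 that fell most among well-expressed protein-coding genes. In all 20 genes the groups do not overlap, which the choice of genes required; NEUROG3 runs from 3.27 to 4.23 CPM at 6 h and from 25.6 to 59.8 CPM at 24 h.

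To separate recovery from late onset, genes were first sorted by what they did at 3 h against 0 h, in libraries other than those of 6 h and 24 h, although all groups shared 1 estimate of the spread in the fit. At 3 h, 5271 genes were called (31.6%), with 16.8% of all genes higher and 14.7% lower. A rise of at least 1 on the log2 scale at 3 h was called in 302 genes (1.81% of those tested) and a fall of that size in 312 genes (1.87%). Of the 302 early risers, 159 (52.6%) fell again between 6 h and 24 h, 15 (4.97%) rose further and 128 were not called. Their median log2 change was 1.38 at 3 h against 0 h and -0.72 at 24 h against 6 h. Of the 312 early fallers, 116 (37.2%) rose again, 13 (4.17%) fell further and 183 were not called, with medians of -1.31 at 3 h and 0.48 between 6 h and 24 h. The median over all genes tested was 0.0025 between 6 h and 24 h. Here further means the same direction as at 3 h in the interval from 6 h to 24 h, and not a level beyond that of 3 h.

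The early genes were also set against vehicle of the same time. Against vehicle at 24 h, a comparison whose libraries were not used at 3 h and in which 21.9% of all genes were higher and 18.8% lower, 105 of the 302 early risers were still higher, 180 were not called and 17 had become lower. Of the 312 early fallers, 138 were still lower, 161 were not called and 13 had become higher. Without replicate 1 of the vehicle group the genes called at 24 h against vehicle fell from 6809 to 4034. Where an early gene was not called against vehicle at 24 h, the test did not show that it had reached the vehicle level.

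**Figure D2:**
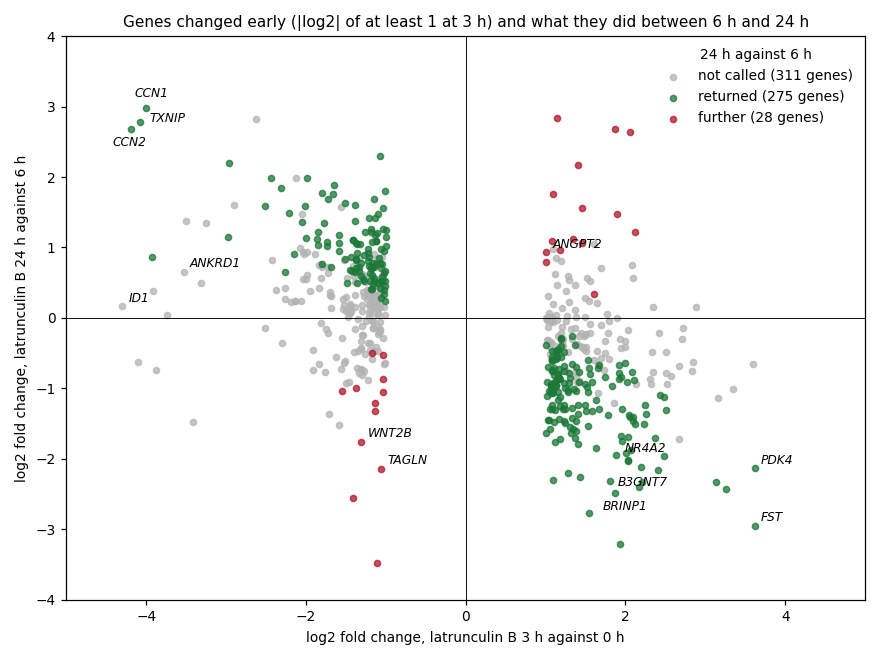
Each point is 1 of the 614 genes with a called log2 change of at least 1 at 3 h against 0 h (x axis), set against its log2 change at 24 h against 6 h (y axis); 17 genes lie outside the axes. Green points turned back between 6 h and 24 h (275 genes), and grey points were not called (311 genes). Red points, labelled further, changed in this interval in the same direction as at 3 h (28 genes). CCN1, CCN2 and TXNIP stand at the upper left, FST and PDK4 at the lower right, and ID1 near the zero line of the y axis.

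Among the early fallers, the secreted matricellular proteins CCN1 and CCN2, both textbook targets of YAP and TEAD, came back in part. CCN1 (chr1:85580761-85584589) stood at 77.5, 82.6 and 81.1 CPM at 0 h, fell to 5.40, 5.52 and 4.16 CPM at 3 h and 3.24, 3.33 and 3.11 CPM at 6 h, and was at 38.6, 11.1 and 27.004 CPM at 24 h. The rise from 6 h to 24 h was 7.90-fold (log2 change 2.98 ± 0.37, adjusted p = 4.45e-05), yet every 24 h drug library stayed below both vehicle libraries, at 82.3 and 90.9 CPM. CCN2 was at 3.77, 3.18 and 3.11 CPM at 6 h and at 33.8, 8.32 and 22.6 CPM at 24 h (log2 change 2.68 ± 0.40, adjusted p = 0.000173), against 164 and 184 CPM with vehicle. AMOTL2, which encodes an angiomotin that binds YAP, had tighter replicates, at 78.8, 74.8 and 81.2 CPM at 6 h and 173, 152 and 182 CPM at 24 h (log2 change 1.11 ± 0.06, adjusted p = 1.26e-07). THBS1, another matricellular gene, went from 27.5, 22.5 and 20.02 CPM to 79.4, 30.97 and 67.8 CPM (log2 change 1.34 ± 0.35, adjusted p = 0.00904). In these genes replicate 2 of the 24 h group was the lowest of its group.

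ANKRD1, which is also used as a readout of YAP, did not follow them past the threshold. It had fallen from 264, 293 and 279 CPM at 0 h to 11.4, 11.8 and 11.2 CPM at 6 h and was at 24.5, 8.84 and 21.1 CPM at 24 h, where replicate 2 lay below all 6 h libraries (log2 change 0.65 ± 0.27, adjusted p = 0.0738). Without that library the log2 change was 0.99 with an adjusted p of 0.000195. Vehicle libraries were at 325 and 355 CPM. Across the list of YAP and TEAD targets, 11 of 29 members tested rose between 6 h and 24 h, 9 fell and 9 were not called, with a median log2 change of 0.28. The members that fell included FSTL1, which encodes a secreted follistatin-like protein (log2 change -1.07), and the stress gene GADD45B (-1.71), which had risen at 3 h. Against vehicle at 24 h, 16 of the 29 members were lower and 4 were higher, where 18.8% of all genes were lower and 21.9% higher. At 3 h and 6 h against 0 h, 10 and 13 members had been lower. AMOTL1, FSTL1, WWC1 and RBMS3 were lower at 24 h but had not been called at 3 h or 6 h.

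The promoters of some YAP targets that rose were searched for the binding motif of TEAD. Windows of 250 bases before to 50 bases after a start site were taken from RefSeq (GRCh38.p14) and searched on both strands for CATTCC, the core of the TEAD binding motif, which 14% of all 35116 windows hold. A window was found for 22 of the 30 members of the list, and 11 of the 22 held the core in at least 1 window. Among the members with a window, it was present in 7 of 7 that rose between 6 h and 24 h, in 0 of 6 that fell, in 3 of 8 that were not called and in the 1 that was not tested. The other members that rose, CCN1, TEAD1, DOCK5 and ARHGEF17, had no window and were not searched. For AMOTL2 and AJUBA 1 of 2 windows held the core, and in LATS2 it lay after the start site. A match is a description of these letters and not of binding. The 250 bases before the start of CCN2 (chr6:131951373-131951622, minus strand) and of AMOTL2 (chr3:134374448-134374697, minus strand) read as follows, 5′ to 3′, with the core or its reverse complement in capitals.
CCN2: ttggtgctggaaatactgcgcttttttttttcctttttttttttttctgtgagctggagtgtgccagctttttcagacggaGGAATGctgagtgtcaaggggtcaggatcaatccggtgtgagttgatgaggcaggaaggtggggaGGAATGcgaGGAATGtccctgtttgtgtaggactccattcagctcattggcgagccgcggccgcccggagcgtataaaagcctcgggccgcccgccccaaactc
AMOTL2: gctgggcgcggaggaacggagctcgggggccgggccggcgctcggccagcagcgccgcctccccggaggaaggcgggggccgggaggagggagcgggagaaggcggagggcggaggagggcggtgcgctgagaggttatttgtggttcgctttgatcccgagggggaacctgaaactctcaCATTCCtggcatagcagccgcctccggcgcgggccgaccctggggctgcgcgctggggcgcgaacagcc
The CCN2 window held 3 copies of the core within 169 bases of the start, and the AMOTL2 window held 1.

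ACTB and ACTG1, the genes of the cytoplasmic actins, were among the genes that came back; their near-identical pseudogene copies can share reads with them. ACTB, which encodes β-actin, stood at 2503, 2659 and 2528 CPM at 0 h, fell to 1310.1, 1302 and 1334 CPM at 6 h and was at 2448, 2089 and 2502 CPM at 24 h. The rise was 1.78-fold with no overlap (log2 change 0.83 ± 0.08, adjusted p = 4.07e-06), and against vehicle at 24 h the log2 difference of -0.16 did not pass the test (adjusted p = 0.146). ACTG1, the γ-actin gene, rose from 1409.9, 1329.7 and 1332 CPM to 1919.5, 1579.9 and 2006 CPM (log2 change 0.44 ± 0.09, adjusted p = 0.00201) and remained lower than with vehicle (log2 difference -0.38, adjusted p = 0.00855), a call lost without replicate 2 of the vehicle group (adjusted p = 0.0684). The muscle actin genes of the list were not called between 6 h and 24 h, with log2 changes of 0.15 for ACTA2, -0.61 for ACTA1, -0.66 for ACTC1 and -1.11 for ACTG2. SRF went from 53.4, 49.3 and 51.2 CPM at 6 h to 90.1, 72.6 and 89.5 CPM at 24 h (log2 change 0.71 ± 0.08, adjusted p = 1.13e-05). Its vehicle libraries were at 71.6 and 77.003 CPM, so 2 of the 3 drug libraries at 24 h lay above both of them. The LIM-domain gene FHL2 rose from 4.87, 4.09 and 4.52 CPM to 12.3, 10.3 and 12.9 CPM (log2 change 1.39 ± 0.12, adjusted p = 1.87e-06), and the actin crosslinker ACTN1 from 103, 107 and 103 CPM to 152, 150.4 and 156 CPM (log2 change 0.55 ± 0.05, adjusted p = 4.2e-06).

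Other members of the same list fell between 6 h and 24 h. TAGLN, which encodes the actin-bundling protein transgelin, had fallen by 3 h and was at 79.5, 67.6 and 55.6 CPM at 6 h and 23.6, 6.63 and 15.996 CPM at 24 h (log2 change -2.14 ± 0.36, adjusted p = 0.000472), against 170.1 and 189 CPM with vehicle. MYL9, the regulatory myosin light chain, was at 83.2, 77.3 and 71.3 CPM at 6 h and 32.7, 22.7 and 35.98 CPM at 24 h (log2 change -1.35 ± 0.16, adjusted p = 3.61e-05). Of the calponin and tropomyosin genes, CNN2 rose (log2 change 0.51), TPM2 fell (-0.46), and CNN1 (-0.51), TPM1 (0.13) and TPM4 (0.01) were not called. FHL1, another LIM-domain gene, had risen early and came back down, with 15.1, 18.6 and 17.5 CPM at 0 h, 38.7, 44.5 and 53.8 CPM at 6 h and 13.4, 15.4 and 15.8 CPM at 24 h (log2 change between 6 h and 24 h -1.62 ± 0.14, adjusted p = 3.02e-06). In all, 12 of 34 members of the MRTF and SRF list rose between 6 h and 24 h, 8 fell and 14 were not called, with a median log2 change of 0.13. With library sizes alone the counts were 18 and 5.

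The CArG box, the SRF binding motif, was looked for in the same promoter windows on both strands. It was found in 1.29% of all windows and in 13 of 30 members of the list that had one. A member counted if any of its windows held the box, so its share is not on the scale of single windows. It was present in 6 of 10 members that rose between 6 h and 24 h, in 2 of 6 that fell and in 5 of 14 that were not called. The 250 bases before the start are printed for 3 members that rose, with the box in capitals: SRF (chr6:43171019-43171268, plus strand), ACTG1 (chr17:81512800-81513049, minus strand) and FHL2 (chr2:105438514-105438763, minus strand).
SRF: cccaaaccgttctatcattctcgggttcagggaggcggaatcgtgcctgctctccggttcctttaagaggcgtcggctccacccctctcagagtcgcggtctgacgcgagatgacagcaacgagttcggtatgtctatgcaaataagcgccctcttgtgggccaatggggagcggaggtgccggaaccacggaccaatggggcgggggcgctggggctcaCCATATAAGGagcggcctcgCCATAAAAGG
ACTG1: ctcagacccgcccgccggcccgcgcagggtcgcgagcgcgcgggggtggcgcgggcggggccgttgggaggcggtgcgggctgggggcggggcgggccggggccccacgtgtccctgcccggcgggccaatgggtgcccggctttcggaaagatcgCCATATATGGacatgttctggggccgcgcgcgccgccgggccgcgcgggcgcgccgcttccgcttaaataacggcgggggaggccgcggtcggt
FHL2: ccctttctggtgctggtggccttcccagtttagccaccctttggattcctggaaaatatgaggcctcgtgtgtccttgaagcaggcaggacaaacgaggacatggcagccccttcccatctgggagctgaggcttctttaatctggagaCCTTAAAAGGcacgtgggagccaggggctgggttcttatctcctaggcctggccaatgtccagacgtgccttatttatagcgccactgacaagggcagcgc
The SRF window held 2 boxes within 30 bases of the start, and the other windows printed held 1 each. The box was in 1 of 2 windows of SRF, in 3 of 4 of FHL2 and in 1 of 4 of ACTN1.

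A metabolic pair of early changes also turned back. TXNIP (chr1:145992435-145996579), which restrains glucose uptake, was at 100.5, 95.9 and 93.6 CPM at 0 h, 7.31, 6.89 and 6.72 CPM at 6 h and 29.5, 71.1 and 42.8 CPM at 24 h. The rise was 6.86-fold between 6 h and 24 h (log2 change 2.78 ± 0.38, adjusted p = 8.31e-05), and all 24 h drug libraries lay below the vehicle libraries (91.1 and 90.6 CPM), a difference that did not pass the test (log2 -0.92, adjusted p = 0.0505) but did without replicate 2 of the 24 h group (log2 -1.33, adjusted p = 0.00937) and in 5 other alternatives. Its relative ARRDC4, which is induced by the same glucose-sensing factor MondoA, went from 12.2, 13.8 and 12.4 CPM to 28.1, 52.9 and 34.6 CPM (log2 change 1.59 ± 0.26, adjusted p = 0.000354). PDK4, the kinase that switches off pyruvate dehydrogenase, moved in the opposite sense. It had risen from 34.2, 30.2 and 33.2 CPM at 0 h to 312, 393 and 391 CPM at 6 h and was at 63.5, 96.1 and 90.2 CPM at 24 h (log2 change -2.13 ± 0.31, adjusted p = 0.000154). PDK4 was still above vehicle at 24 h, where it was at 23.5 and 22.98 CPM (log2 difference 1.84, adjusted p = 0.00162).

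The lists of energy metabolism split in this interval. Among genes of pyruvate dehydrogenase control and fatty acid oxidation, 10 of 26 rose and 8 fell (median log2 change -0.10). The coactivator PPARGC1A went from 71.7, 74.01 and 72.8 CPM to 34.9, 27.9 and 37.9 CPM (log2 change -1.12 ± 0.14). The mitochondrial enzyme CPT2 rose instead, from 26.7, 26.4 and 25.3 CPM to 33.5, 40.2 and 36.8 CPM (0.50 ± 0.07), as did the medium-chain dehydrogenase ACADM (0.39 ± 0.06) and the kinase PDK2 (0.64 ± 0.08). Of 28 glycolysis and hypoxia genes, 2 rose and 10 fell (6 and 7 with library sizes alone), among them the glucose transporter SLC2A3 (-1.37 ± 0.29) and the hypoxia gene NDRG1 (-1.15 ± 0.19). Of 24 MondoA and FOXO target genes, 5 rose and 8 fell, against 8 and 8 with library sizes alone. The FOXO-type members DDIT4, an inhibitor of mTORC1 (261, 278 and 342 CPM at 6 h and 106, 105 and 101 CPM at 24 h), FOXO1 (-0.91 on the log2 scale) and the insulin receptor substrate IRS2 (-1.29) had all risen at 3 h and fell between 6 h and 24 h.

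Among the early risers, several genes of signalling and transcription came back to about the starting level or went below it. BRINP1, a gene of the developing nervous system, was at 11.2, 12.8 and 12.2 CPM at 0 h, 65.9, 76.4 and 87.2 CPM at 6 h and 13.7, 11.5 and 15.7 CPM at 24 h, against 12.9 and 12.9 CPM with vehicle. RORA, a nuclear receptor, was at 22.5, 24.3 and 25.1 CPM at 0 h, 90.9, 105 and 97.8 CPM at 6 h and 24.5, 22.8 and 25.4 CPM at 24 h (log2 change between 6 h and 24 h -2.01 ± 0.15, adjusted p = 8.08e-07). For both genes the 24 h drug libraries overlapped the vehicle libraries of the same time, at a log2 difference of 0.08 for BRINP1 and 0.02 for RORA. NR4A2, an orphan nuclear receptor of the immediate-early class, stood at 62.5, 60.2 and 65.02 CPM at 0 h, 215, 226 and 249.99 CPM at 3 h and 31.4, 39.99 and 40.1 CPM at 24 h, which was lower than with vehicle (log2 difference -0.77, adjusted p = 0.013). The glycosyltransferase gene B3GNT7 followed the same course, from 341, 386 and 417 CPM at 6 h to 66.3, 81.98 and 81.4 CPM at 24 h, and ended below vehicle at 122 and 109 CPM (log2 difference -0.59, adjusted p = 0.043). The angiotensin receptor gene AGTR1 went from 118, 151 and 182 CPM to 26.1, 36.6 and 28.9 CPM, and the nuclear receptor gene NR2F1 from 98.7, 93.4 and 82.2 CPM to 29.2, 10.99 and 19.95 CPM. Neither of the last pair was called against vehicle at 24 h (adjusted p = 0.23 for AGTR1 and 0.0686 for NR2F1). FST, in contrast, was still higher than with vehicle at 24 h (5.22 and 6.61 CPM, log2 difference 0.98, adjusted p = 0.0473), a call kept in 11 of 16 alternatives and lost without either vehicle library. The calls against vehicle were kept in 9 of 16 alternatives for B3GNT7 and in 15 of 16 for NR4A2, and NR2F1 was called in 6 of 16.

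Genes of the integrated stress response, in which the transcription factor ATF4 turns on amino acid transport and synthesis, also declined after 6 h. ATF4 itself had gone from 177, 192 and 178 CPM at 0 h to 389.8, 393 and 375 CPM at 3 h and came down from 323, 311 and 309 CPM at 6 h to 222, 194 and 201 CPM at 24 h (log2 change -0.61 ± 0.05, adjusted p = 2.69e-06). The cationic amino acid transporter gene SLC7A1 fell from 153, 167 and 168 CPM to 51.4, 54.5 and 54.1 CPM (log2 change -1.61 ± 0.10, adjusted p = 1.53e-07). Of 28 genes of the list, 14 fell, 3 rose and 11 were not called, with a median log2 change of -0.37 (7 rises and 10 falls with library sizes alone). Of these genes, 13 were higher and 4 lower at 3 h against 0 h, where 16.8% of all genes were higher and 14.7% lower. Lysosome and autophagy genes showed 10 falls and 1 rise among 24 tested (median -0.19), and 6 and 5 with library sizes alone. The autophagy receptor gene SQSTM1 was at 302, 295 and 281 CPM at 6 h and at 199, 160.3 and 195 CPM at 24 h (log2 change -0.66 ± 0.07), still above vehicle at 112 and 109 CPM. Endoplasmic reticulum chaperone and unfolded protein response genes showed 10 falls and 4 rises among 24, yet 15 of them were higher and 0 lower than with vehicle at 24 h. DESeq2 also called 10 of these 24 genes lower and 3 higher between 6 h and 24 h. With library sizes alone the falls of this list went from 10 to 3 and the rises from 4 to 7.

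Other early changes persisted in full or in part. ID1, which encodes an inhibitor of bHLH transcription factors and is a direct target of BMP signalling, was at 121, 110.2 and 87.1 CPM at 0 h, 5.08, 6.50 and 4.60 CPM at 3 h, 3.96, 3.25 and 3.32 CPM at 6 h and 5.05, 2.73 and 4.09 CPM at 24 h. The 6 h and 24 h groups overlapped (log2 change 0.16 ± 0.22, adjusted p = 0.605), and ID1 was far below vehicle at 24 h (log2 difference -4.57, adjusted p = 7.27e-08). ID3, its close relative, rose from 13.2, 12.2 and 12.2 CPM to 21.8, 22.7 and 23.8 CPM (log2 change 0.86 ± 0.16, adjusted p = 0.000785), against 155 and 168 CPM with vehicle. NOG, the BMP antagonist noggin, had fallen at 3 h and fell again, from 6.43, 4.92 and 4.44 CPM at 6 h to 0.614, 0.307 and 0.499 CPM at 24 h (log2 change -3.47 ± 0.28, adjusted p = 1.58e-06). In the list of BMP and TGF-β targets and regulators, 2 of 24 genes rose, 5 fell and 17 were not called (median -0.10), and with library sizes alone 5 rose and 4 fell. ASS1, which encodes the arginine-synthesis enzyme argininosuccinate synthase, was at 4.30, 4.26 and 5.01 CPM at 0 h, 38.5, 39.1 and 45.1 CPM at 6 h and 17.2, 42.6 and 38.01 CPM at 24 h. Replicate 1 was the lowest of the 24 h group, and the change from 6 h was not called (log2 change -0.33 ± 0.24, adjusted p = 0.321).

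Early genes that changed between 6 h and 24 h in the direction of their 3 h change were picked at a mean log2 CPM of at least 3. Up to 4 with the largest change each way were taken, which were TAGLN and those below. Smaller changes of this kind, such as that of FILIP1L (log2 change -0.50), were left out. WNT2B, a secreted Wnt ligand, went from 27.1, 37.97 and 39.96 CPM at 0 h to 16.9, 17.3 and 8.25 CPM at 3 h, 12.7, 9.19 and 7.30 CPM at 6 h and 3.79, 2.76 and 2.10 CPM at 24 h (log2 change between 6 h and 24 h -1.76 ± 0.34, adjusted p = 0.00126). NPPB, the natriuretic peptide gene, went from 23.3, 19.8 and 16.002 CPM to 11.8, 3.90 and 8.08 CPM (log2 change -1.32 ± 0.35, adjusted p = 0.00916), and vehicle libraries were at 89.3 and 105 CPM. NNMT, the nicotinamide methyltransferase gene, went from 8.41, 7.76 and 7.59 CPM to 3.51, 3.04 and 3.69 CPM, but it was also lower in vehicle cells at 24 h (11.3 and 11.99 CPM) than at 0 h (25.9, 20.4 and 20.3 CPM), and its change beyond that of vehicle was not called (log2 -0.28, adjusted p = 0.563). On the rising side, the angiopoietin gene ANGPT2 was at 48.3, 53.3 and 66.001 CPM at 0 h, 88.7, 103 and 124 CPM at 6 h and 154, 224 and 225 CPM at 24 h (log2 change between 6 h and 24 h 0.93 ± 0.19, adjusted p = 0.00207). ATF3, a stress-induced factor, was at 61.8, 69.1 and 67.6 CPM at 3 h, 42.4, 39.2 and 36.8 CPM at 6 h and 57.04, 41.4 and 51.7 CPM at 24 h. It thus rose again after a decline, and all its 24 h libraries lay below its 3 h libraries. Its groups overlapped and its call (log2 change 0.34 ± 0.10, adjusted p = 0.0166) was lost without replicate 3 of the 6 h group (adjusted p = 0.0663) and without replicate 1 (0.0785) or 3 (0.0546) of the 24 h group.

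The libraries of 12 h (n = 2) belonged to neither group but shared the estimate of the spread, and without them 7197 genes were called between 6 h and 24 h, an alternative chosen after seeing the data. They lay between the groups compared for some genes and outside them for others. NEUROG3 was at 8.62 and 13.9 CPM at 12 h, INSM1 at 11.2 and 18.7 CPM and DLL3 at 5.56 and 4.26 CPM, each between its 6 h and 24 h libraries. TXNIP (13.3 and 36.9 CPM), FST (22.7 and 32.8 CPM) and BRINP1 (32.1 and 18.6 CPM) were likewise on the way. CCN2 (2.41 and 4.02 CPM), SRF (53.2 and 46.9 CPM) and ACTB (1373 and 1153 CPM), in contrast, had at least 1 of the 12 h libraries below all 6 h libraries, and ANKRD1 had both (4.77 and 6.49 CPM). No test was made with this pair of libraries.

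**Figure D3:**
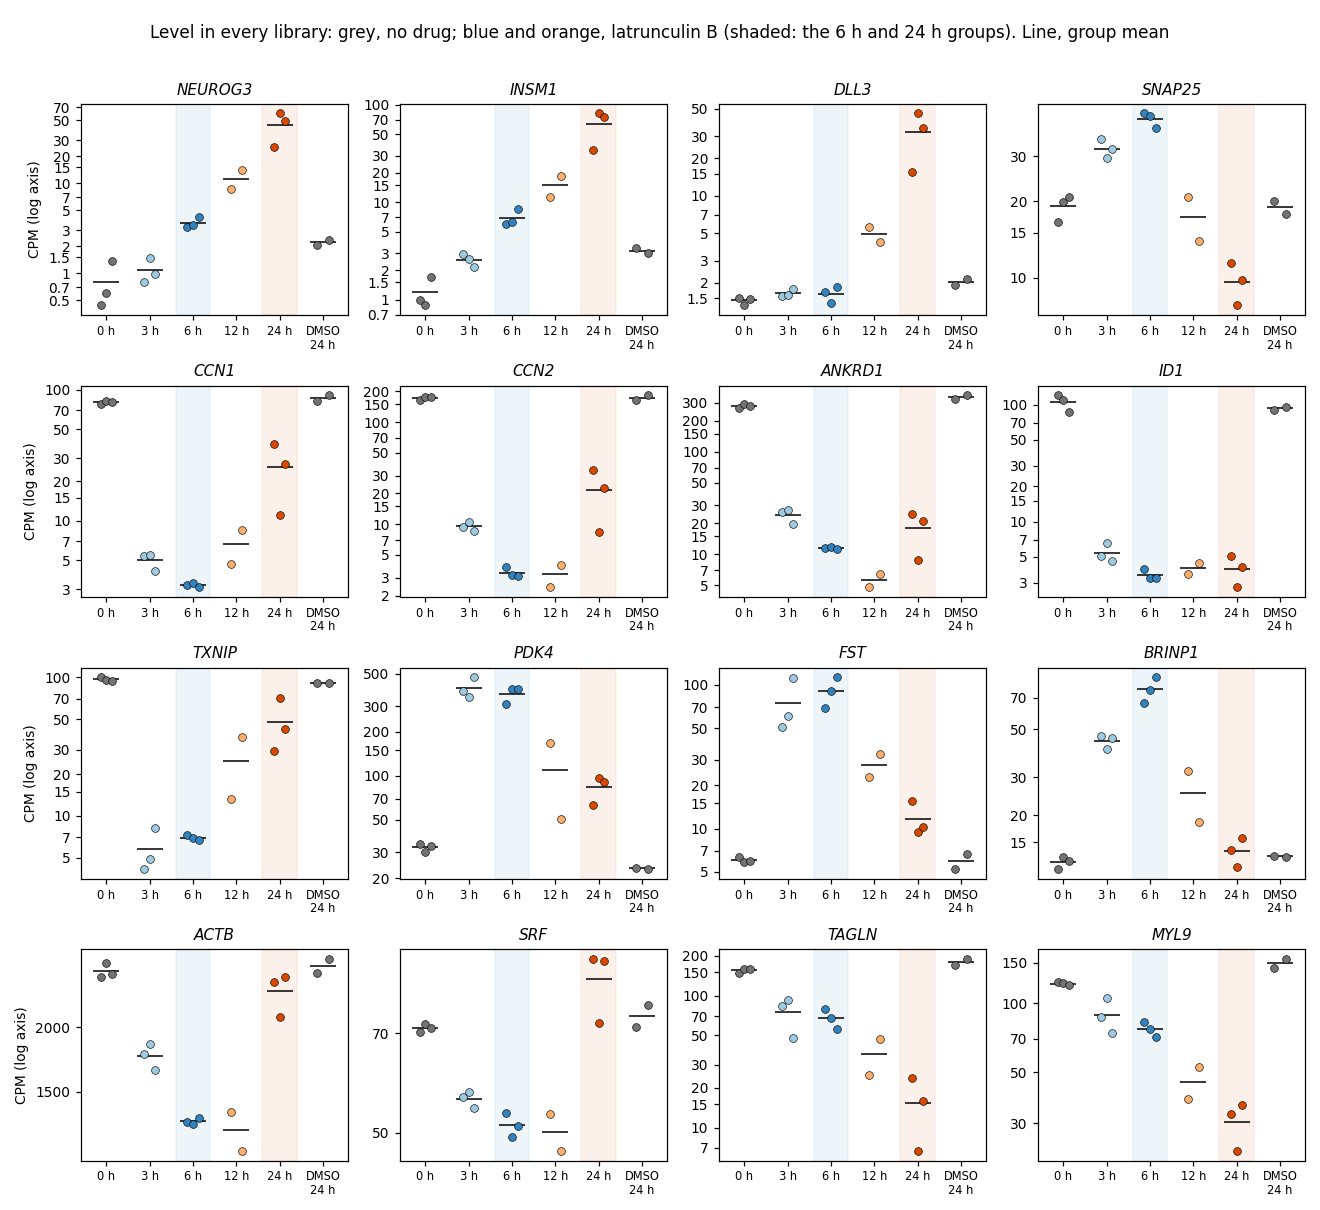
CPM on a log axis in every library for 16 genes, by group: 0 h, latrunculin B for 3, 6, 12 and 24 h, and vehicle for 24 h; each point is 1 library and the bar is the group mean. CCN1, CCN2, ACTB and TXNIP are low at 6 h and higher at 24 h, ID1 stays low, and NEUROG3 reaches 25.6 to 59.8 CPM at 24 h against 2.07 to 2.35 CPM with vehicle.

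Late genes were those called between 6 h and 24 h with a log2 change of at least 1 that were not called at 3 h and also changed beyond vehicle. They were 130 upward and 152 downward. Of the 416 strong rises, 307 were not called at 3 h, 87 had been lower at 3 h and 22 higher. Of the 449 strong falls, 261 were not called at 3 h, 164 had been higher and 24 lower. The rule did not ask whether a gene had already changed by 6 h. Among upward late genes with a mean log2 CPM of at least 3, NEUROG3 and INSM1 had the largest rises. Both were already called higher at 6 h than at 0 h (log2 difference 2.205 for NEUROG3 and 2.56 for INSM1), so their rise had begun by 6 h. After them came ELAPOR1 (11.3, 12.4 and 11.98 CPM at 6 h and 39.6, 74.6 and 48.7 CPM at 24 h), the extracellular calcium-binding SMOC2 (94.97, 87.6 and 98.5 CPM and 290.2, 364 and 359 CPM), the gap junction gene GJA4 (4.72, 5.18 and 6.63 CPM and 10.5, 27.7 and 21.1 CPM) and AGR2, a disulphide isomerase of secretory epithelia (8.26, 10.3 and 8.46 CPM and 31.6, 40.4 and 25.1 CPM). None of these 4 overlapped between 6 h and 24 h, and their log2 changes were between 1.84 and 2.19. Downward late genes included NTRK2, which went from 114, 111 and 103 CPM at 6 h to 23.98, 9.79 and 16.5 CPM at 24 h (log2 change -2.71 ± 0.24, adjusted p = 2.75e-06). SEMA3D, an axon guidance ligand, went from 223, 213 and 191 CPM to 48.7, 29.3 and 37.9 CPM. Both had been higher at 6 h than at 0 h (NTRK2 76.9, 64.9 and 66.9 CPM and SEMA3D 122, 111 and 122 CPM), so the fall came after a rise that the 3 h libraries did not yet show. The heparan sulphate enzyme HS3ST5 went from 22.3, 23.1 and 18.5 CPM to 6.93, 4.45 and 6.09 CPM, and the adaptor gene DAB1 from 14.7, 14.8 and 13.3 CPM to 5.42, 3.04 and 4.16 CPM.

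Some other regulators of endocrine commitment also rose between 6 h and 24 h, and of those in this paragraph INSM1 and PAX4 were late genes by the rule above. PAX4 was already called higher at 6 h than at 0 h (log2 difference 1.41), as were NEUROD1 (1.41) and NKX2-2 (3.09). INSM1 was at 6.01, 6.32 and 8.42 CPM at 6 h and 33.98, 81.5 and 74.2 CPM at 24 h (log2 change 3.19 ± 0.31, adjusted p = 6e-06). PAX4, a homeobox factor of the β-cell lineage, was at 0.914, 1.29 and 0.746 CPM and 5.97, 15.6 and 12.4 CPM (log2 change 3.52 ± 0.41, adjusted p = 2.57e-05). NKX2-2 was at 2.09, 2.99 and 4.48 CPM and 9.93, 26.1 and 23.3 CPM (log2 change 2.64 ± 0.33, adjusted p = 4.89e-05) and had already been called higher at 3 h against 0 h (log2 difference 2.06). NEUROD1, which acts below NEUROG3, was at 0.761, 1.55 and 1.29 CPM and 2.63, 8.47 and 8.25 CPM (log2 change 2.42 ± 0.42, adjusted p = 0.000508). In none of these genes did the groups overlap, and in all of them replicate 1 was the lowest of the 24 h group. Without the drug, NEUROG3 was at 0.438, 0.603 and 1.36 CPM at 0 h and at 2.07 and 2.35 CPM at 24 h with vehicle, a difference that was not called (log2 1.49, adjusted p = 0.294). The part of the change beyond that of vehicle was 2.14 ± 0.61 on the log2 scale for NEUROG3 (adjusted p = 0.0221), 1.75 ± 0.56 for INSM1 (adjusted p = 0.0373) and 1.98 ± 0.66 for PAX4 (adjusted p = 0.0474). For NKX2-2 it was 0.87 ± 0.61 (adjusted p = 0.35) and for NEUROD1 1.36 ± 0.67 (adjusted p = 0.172), neither past the threshold. The call of NEUROG3 was lost without replicate 3 of the 0 h group (log2 1.57, adjusted p = 0.118) or either vehicle library (adjusted p = 0.0793 and 0.0567), and kept in 19 of 22 alternatives. That of INSM1 was kept in 13 of 22 (adjusted p up to 0.135) and that of PAX4 in 12 of 22 (up to 0.159), and the direction was upward in all of them.

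The commitment list did not move as one. Of 23 genes tested, 11 rose, 4 fell and 8 were not called, with a median log2 change of 0.73. Beyond vehicle, 5 were higher and 3 lower, against 11.4% and 11.1% of all genes. The 4 that fell were RFX6, NKX6-1 (log2 change -0.38), SOX4 (-0.23) and SOX11. RFX6, an endocrine transcription factor that had risen at 3 h, went from a mean of 51.4 CPM at 6 h to 29.8 CPM at 24 h (log2 change -0.78, adjusted p = 0.00281). The change of RFX6 beyond vehicle was called (log2 -1.33), and RFX6 was still higher than with vehicle at 24 h (log2 difference 1.32). SOX11, an abundant neural and progenitor factor of the list, had risen early and came down from 643, 661 and 704 CPM at 6 h to 349, 319 and 358 CPM at 24 h (log2 change -0.97 ± 0.08, adjusted p = 1.47e-06), and the summed level of the list was 1757 to 1804 CPM at 6 h and 1412 to 1523 CPM at 24 h. Genes of the secretory granule and of hormone release showed 12 rises and 5 falls among 30 (median 0.43). SYT13, a synaptotagmin of endocrine precursors, was at 22.5, 24.2 and 24.6 CPM at 6 h and 39.95, 56.05 and 50.98 CPM at 24 h (log2 change 1.04 ± 0.11, adjusted p = 1.3e-05). SNAP25, a fusion protein of the plasma membrane, went the other way, from 44.1, 42.98 and 38.7 CPM to 11.4, 7.80 and 9.78 CPM (log2 change -2.12 ± 0.16, adjusted p = 7.43e-07). The granule protein gene CHGA was at 50.8, 49.8 and 64.8 CPM at 6 h and 26.2, 102 and 96.9 CPM at 24 h. Replicate 1 lay below all 6 h libraries and the other libraries above them (log2 change 0.45 ± 0.38, adjusted p = 0.394), and without that library the log2 change was 0.85 with an adjusted p of 0.0143.

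Of the 7 hormone genes tested, 3 rose and 0 fell in edgeR and in DESeq2, with 4 and 0 at an unadjusted p under 0.05, against 19% and 18.9% of all genes in edgeR. The 3 that rose, INS, GCG and PPY, were near the floor. GCG had means of 0.092 CPM at 6 h and 0.602 CPM at 24 h, and PPY 0.051 and 0.442 CPM. The somatostatin gene SST, at means of 53.5 and 55.4 CPM, was not called (log2 change 0.06, adjusted p = 0.938, edgeR). INS, the insulin gene, whose reads can be shared with the read-through gene INS-IGF2, was at 0.228, 0.378 and 0.497 CPM at 6 h and 0.614, 0.982 and 3.96 CPM at 24 h (log2 change 2.32 ± 0.61, adjusted p = 0.00904), and the call was lost without replicate 3 of the 24 h group (log2 change 1.12, adjusted p = 0.0652). Vehicle libraries at 24 h were at 1.49 and 1.19 CPM, and the change of INS beyond vehicle was not called (log2 -0.31, adjusted p = 0.857). Beyond vehicle, 0 of the 7 were called in either direction.

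Notch ligands parted ways. DLL3, an inhibitory ligand, was at 1.67, 1.36 and 1.82 CPM at 6 h and 15.5, 45.98 and 35.3 CPM at 24 h (log2 change 4.31 ± 0.33, adjusted p = 9.88e-07), with vehicle at 1.90 and 2.13 CPM. DLL1, the activating ligand displayed by endocrine precursors, was at 55.7, 56.7 and 68.98 CPM and 88.5, 147 and 120.3 CPM (log2 change 0.97 ± 0.17, adjusted p = 0.000498). JAG1, a ligand of the progenitor and duct epithelium, fell from 700.2, 717 and 771 CPM to 344, 227 and 296 CPM (log2 change -1.33 ± 0.11, adjusted p = 1.7e-06), and the 24 h library with the highest DLL1 had the lowest JAG1. HES6, a bHLH factor that antagonises HES1, was at 20.2, 19.4 and 22.8 CPM and 34.3, 53.6 and 43.5 CPM (log2 change 1.08 ± 0.14, adjusted p = 5.17e-05). HES1, the main Notch effector in the pancreas, was at 115, 114 and 119 CPM and 98.6, 111 and 106 CPM, and the difference did not pass the test (log2 change -0.14 ± 0.12, adjusted p = 0.368). NOTCH1 had a log2 change of -0.39 ± 0.07 (adjusted p = 0.001) and the coactivator gene MAML3 one of 1.61 ± 0.11 (adjusted p = 5.22e-07). Over the list, 7 of 23 genes rose and 9 fell (median -0.14), against 8 and 6 with library sizes alone.

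Some immediate-early genes rose between 6 h and 24 h. EGR1, a zinc-finger factor induced by growth factors, was at 1.33, 2.01 and 1.33 CPM at 6 h and 5.49, 6.35 and 6.05 CPM at 24 h (log2 change 1.94 ± 0.18, adjusted p = 5.34e-06), and KLF4 at 3.50, 2.99 and 3.65 CPM and 7.98, 5.99 and 6.42 CPM (log2 change 1.01 ± 0.14, adjusted p = 0.00012). EGR1 was not called at 3 h against 0 h, whereas KLF4 was already higher then (log2 difference 0.75). FOS, in contrast, was at 6.20, 6.81 and 7.75 CPM and 7.51, 11.7 and 9.51 CPM with no call (log2 change 0.47 ± 0.21, adjusted p = 0.0979), though it was called without replicate 1 of the 24 h group (log2 change 0.62, adjusted p = 0.0433). Of 24 immediate-early genes, 9 rose and 3 fell (median -0.01). Of 20 targets and feedback regulators of ERK, 4 rose and 6 fell (median 0.03), against 8 and 5 with library sizes alone.

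Cholesterol and fatty acid synthesis genes were called in 1 direction only between 6 h and 24 h. Of 31 genes, 20 rose between 6 h and 24 h and 0 fell (median log2 change 0.31). DESeq2 called 21 higher and 0 lower, and at an unadjusted p under 0.05 the counts were 22 and 0. HMGCS1, an early enzyme of the sterol pathway, was at 129, 126 and 115 CPM at 6 h and 225, 184 and 173 CPM at 24 h (log2 change 0.65 ± 0.09, adjusted p = 8.89e-05), and the desaturase gene FADS2 at 247, 237 and 239 CPM and 377, 389 and 361 CPM (log2 change 0.64 ± 0.06, adjusted p = 2.87e-06). Vehicle libraries at 24 h were lower than the 24 h drug libraries in both of these genes. Against vehicle, 28 of the 31 genes were higher at 24 h and 0 lower, where 21.9% of all genes were higher and 18.8% lower. Part of this was early: at 3 h against 0 h, 10 were higher and 0 lower (16.8% and 14.7% of all genes). At 6 h against 0 h, 13 were higher and 4 lower (22.9% and 20.4%).

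Replication and mitosis genes went different ways. Of 28 S-phase genes, 12 rose between 6 h and 24 h and 1 fell (median 0.32), whereas of 26 mitosis genes 0 rose and 9 fell (median -0.30). For mitosis, DESeq2 gave 0 and 9, and the counts at an unadjusted p under 0.05 were 0 and 11. With library sizes alone the S-phase counts were 18 and 0 and the mitosis counts 1 and 5. MCM2, a subunit of the replicative helicase, was at 61.8, 64.1 and 76.1 CPM at 6 h and 113, 119 and 115 CPM at 24 h (log2 change 0.78 ± 0.08, adjusted p = 9.59e-06), and MCM6 at 28.7, 29.8 and 33.2 CPM and 58.4, 64.1 and 59.1 CPM (log2 change 0.99 ± 0.10, adjusted p = 8.98e-06). CDK1, the mitotic kinase, was at 32.1, 38.1 and 42.3 CPM and 22.8, 24.03 and 19.7 CPM (log2 change -0.76 ± 0.13, adjusted p = 0.000543), and the kinesin KIF23 at 22.9, 24.1 and 26.4 CPM and 15.6, 16.9 and 13.9 CPM (log2 change -0.66 ± 0.11, adjusted p = 0.000405).

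Some of these genes changed in vehicle cells too. Between 0 h and 24 h with vehicle, the median log2 change was -0.54 for the S-phase list and -0.71 for the mitosis list, against 0.01 for all genes tested, and 1 S-phase and 4 mitosis genes were called lower and 0 higher, with 0.221% of all genes called lower. At 24 h the drug libraries of CDK1 overlapped the vehicle libraries (19.5 and 23.1 CPM). Beyond vehicle, the change between 6 h and 24 h was higher in 23 of 28 S-phase genes and in 9 of 26 mitosis genes. It was lower in 0 of either list, and over all genes it was higher in 11.4% and lower in 11.1%. The vehicle interval began at 0 h and the drug interval at 6 h. A fall of untreated cells in the first 6 h would thus also count as a rise beyond vehicle, and this was not tested. For CDK1 the change beyond vehicle was 0.10 ± 0.20 (adjusted p = 0.764) and for MCM6 1.27 ± 0.15 (adjusted p = 0.000138). Targets of p53 and inhibitors of cyclin-dependent kinases showed 6 rises and 0 falls among 20. DESeq2 gave the same counts, and 7 and 0 passed an unadjusted p under 0.05. The p53 target PHLDA3 had fallen at 3 h and went from 25.7, 22.5 and 20.2 CPM at 6 h to 62.4, 36.8 and 40.3 CPM at 24 h (log2 change 1.03 ± 0.21, adjusted p = 0.00162), and the growth-arrest gene GADD45A from 50.5, 47.6 and 48.8 CPM to 89.4, 80.97 and 83.4 CPM (log2 change 0.79 ± 0.10, adjusted p = 3.83e-05).

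**Figure D4:**
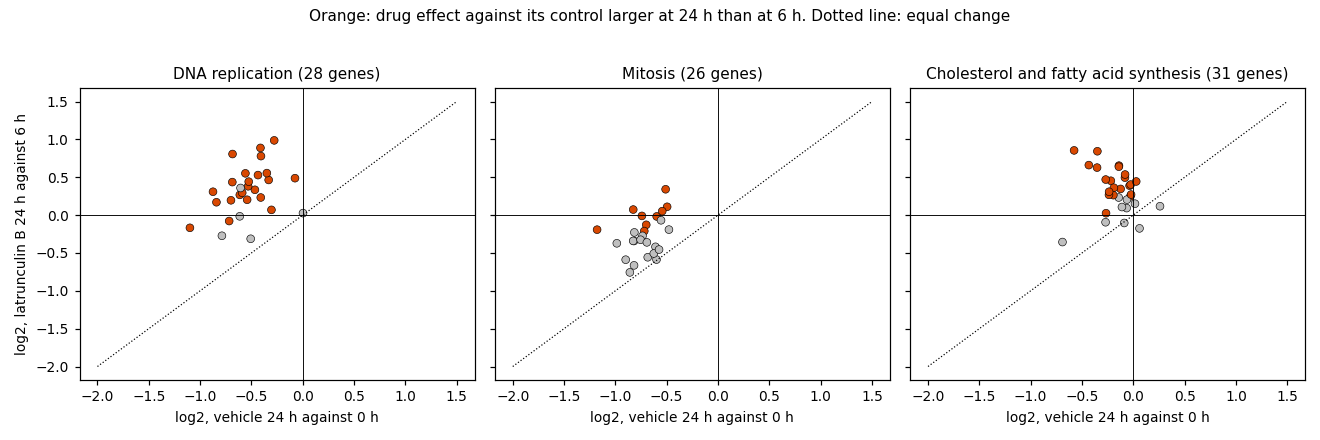
Log2 change of each gene between 6 h and 24 h on the drug (y axis) against its log2 change between 0 h and 24 h with vehicle (x axis), for 28 DNA replication, 26 mitosis and 31 cholesterol and fatty acid synthesis genes. Points above the dotted line changed more upward on the drug than with vehicle, and orange points passed the test of the change beyond vehicle (23, 9 and 21 genes).

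Matrix genes fell between 6 h and 24 h. Of 24 basement membrane genes, 17 fell, 1 rose and 6 were not called, with a median log2 change of -0.64. At 3 h against 0 h, 1 of them had been higher and 0 lower (16.8% and 14.7% of all genes). HSPG2, which encodes perlecan, was at 2731, 2507 and 2301 CPM at 6 h and 1296, 1097 and 1039 CPM at 24 h (log2 change -1.14 ± 0.12, adjusted p = 1.45e-05). The laminin chain gene LAMA1 was at 2146, 2191 and 2152 CPM and 1279.8, 1173 and 1121 CPM (log2 change -0.86 ± 0.05, adjusted p = 1.37e-07). AGRN, which encodes agrin, was at 1892, 1665 and 1638 CPM and 1128, 947 and 981 CPM (log2 change -0.77 ± 0.09, adjusted p = 3.97e-05), and the collagen gene COL18A1 at 2636, 2320.1 and 2386 CPM and 1604, 1341 and 1598 CPM (log2 change -0.69 ± 0.11, adjusted p = 0.000214). In all 4 genes every 24 h drug library also lay below both vehicle libraries. Summed over the list, the level was 15451 to 16905 CPM at 6 h and 9046 to 10561 CPM at 24 h. Of 19 integrin genes, 2 rose and 6 fell (median -0.18), and of 26 junction and keratin genes, 3 rose and 10 fell (median -0.13, 5 and 7 with library sizes alone). Over all genes 19% rose and 18.9% fell in this interval.

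Guidance and Wnt genes changed in both directions. ROBO2, a receptor for the guidance ligand SLIT, was at 52.1, 50.97 and 46.8 CPM at 6 h and 18.4, 20.04 and 17.3 CPM at 24 h (log2 change -1.43 ± 0.09, adjusted p = 1.53e-07), while the adhesion gene NCAM1 rose from 66.6, 52.2 and 55.8 CPM to 156, 138 and 143 CPM (log2 change 1.32 ± 0.15, adjusted p = 1.66e-05). Of 21 axon and neuronal genes, 4 rose and 9 fell (median -0.50). LGR4, an R-spondin receptor that heightens Wnt signalling, had risen at 3 h and went from 525, 563 and 551 CPM to 259.9, 233 and 268 CPM (log2 change -1.11 ± 0.07, adjusted p = 1.63e-07). Of 23 Wnt genes, 3 rose and 9 fell (median -0.03), against 6 and 8 with library sizes alone.

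**Figure D5:**
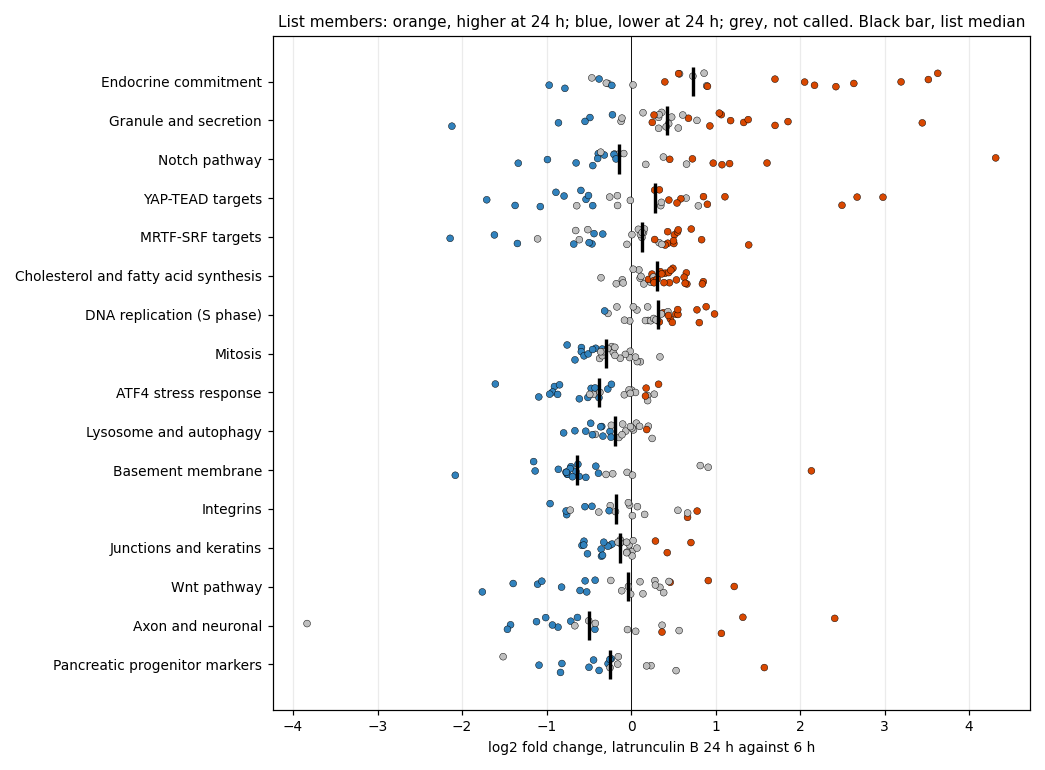
Log2 change of every tested member between 6 h and 24 h on latrunculin B (x axis) for 16 of the 34 gene lists (rows); orange points were called higher at 24 h, blue points lower, grey points were not called, and the black bar is the list median. The medians run from -0.64 for basement membrane to 0.73 for endocrine commitment, and DLL3 of the Notch list is the point farthest to the right at 4.31.

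Markers of pancreatic progenitors changed in part. Of 17 such markers, 9 fell between 6 h and 24 h and 1 rose (median -0.25), while DESeq2 called 10 lower and 0 higher. With library sizes alone 6 fell and 2 rose. The homeobox gene PROX1 had risen at 3 h and went from 166, 181 and 188 CPM at 6 h to 89.2, 83.4 and 78.9 CPM at 24 h (log2 change -1.09 ± 0.09, adjusted p = 2.68e-06), close to the vehicle libraries at 88.97 and 94.2 CPM. ONECUT2, another homeobox gene of the progenitor, was at 301, 306 and 293 CPM and 205, 152 and 147 CPM (log2 change -0.83 ± 0.10, adjusted p = 4.12e-05), below vehicle at 302 and 300.3 CPM. SPDEF, a factor of secretory epithelia that had risen on the drug, was at 25.05, 22.7 and 26.03 CPM and 11.3, 12.6 and 14.9 CPM (log2 change -0.93 ± 0.18, adjusted p = 0.00147). SLC26A3, a chloride and bicarbonate exchanger, was at 12.6, 15.05 and 17.9 CPM at 0 h, 176, 201 and 224 CPM at 6 h and 52.8, 57.6 and 73.5 CPM at 24 h (log2 change between 6 h and 24 h -1.71 ± 0.30, adjusted p = 0.000587).

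Markers of other pancreatic and neighbouring cell types gave mixed counts, in short lists, set against 19% of all genes higher and 18.9% lower at 24 h. Of 12 duct markers, 0 rose and 3 fell, with 0 and 3 also at an unadjusted p under 0.05 and in DESeq2. The fallers included the secretin receptor gene SCTR, at 132, 126 and 128 CPM at 6 h and 57.97, 59.7 and 60.2 CPM at 24 h (log2 change -1.12 ± 0.14, adjusted p = 4.6e-05). The chloride channel gene CFTR was at 2204, 2269 and 2201 CPM and 1134, 1091 and 1333 CPM (log2 change -0.91 ± 0.27, adjusted p = 0.0187), a call that was lost without replicate 1 or replicate 2 of the 24 h group. Of 11 acinar markers, 4 rose and 0 fell, also in DESeq2 and at an unadjusted p under 0.05. The elastase gene CELA3A was at 1.26, 1.78 and 1.20 CPM and 4.23, 11.5 and 7.82 CPM (log2 change 2.47 ± 0.40, adjusted p = 0.000317). CELA3A and its near-identical neighbour CELA3B can share reads. Hepatic markers showed 2 rises and 3 falls among 14, gut markers 3 and 1 among 9, and markers of pluripotent cells 3 and 1 among 9. Mesenchymal markers gave 0 calls among 13, with 0 higher and 1 lower at an unadjusted p under 0.05 and 0 in DESeq2, and summed to 281 to 357 CPM at 6 h and 218 to 327 CPM at 24 h. Endothelial markers gave 0 calls among 8, with 0 at an unadjusted p under 0.05 and 0 in DESeq2, and summed to 44.6 to 50.2 CPM at 6 h and 44.2 to 50.1 CPM at 24 h. Neural markers had 1 rise among 6 tested and summed to 18.5 to 23.4 CPM at 6 h and 12.7 to 24.0 CPM at 24 h, with FOXD3 at no reads in the 6 libraries. The part of these other cell types in the results above was not tested.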

How the data were processed

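RNA from 16 samples was sequenced, and the 6 libraries of latrunculin B at 6 h and 24 h were compared. The authors deposited 1 table per library, laid out as salmon writes it, with estimated counts per transcript, which need not be whole, and TPM values (abundances scaled to the same total). The submitters' processing notes name salmon 1.3.0 and the build hg38, while the methods of the study name STAR with counting per gene, another route; strand use is not given in the sources used here. A further deposited table holds the authors' own log2 fold changes, standard errors and p-values, which were not used, nor were its 16 columns of per-sample values.

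Of 177456 transcripts, 165533 were matched to genes through GENCODE 44 without version numbers, and 2.92% to 3.17% of the reads of a library stayed unmatched and were left out. Counts were summed over 35810 genes, rounded and tested with edgeR 4.0.16 in R 4.3.3 (quasi-likelihood test, two-sided, TMM scaling, filterByExpr, the 6 groups in one fit), which left 16705 genes. P-values were adjusted by Benjamini and Hochberg over all of them and called under 0.05. CPM uses TMM-scaled library sizes, and errors of log2 changes are standard errors. Depth was 23609727 to 33515398 estimated reads per library. It limits genes of a few reads, and shared reads make near-identical copies uncertain.

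Named genes were the 10 largest rises and falls (called, protein-coding, mean log2 CPM of at least 3, no overlap), the 8 early genes with the largest return and the 4 with the largest further change each way, the 6 largest late changes each way, a panel of 25 genes, and up to 6 members of each of 34 lists by smallest p, with cell type markers. Some of these genes are not reported here. Members, lists and tests were chosen with earlier results of these data known.

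The fit was tested on simulated counts with 200 changed genes. These were changed in the 24 h libraries alone, up and down in equal numbers, with the spread estimated from the data. In the data 6323 genes were called, so the rates do not cover changes of that extent or the choice of scaling. For 24 h against 6 h (16478 genes) edgeR recovered 73% of genes changed by a log2 of 1 and 82.8% of those changed by 2, with 4.91% false calls. DESeq2 made 13.4%. For the change beyond vehicle edgeR recovered 61% and 72.7% with 3.62% false calls. Alternatives were DESeq2 1.42.0, no scaling, RLE size factors, a length offset, no filter or one on a mean of 50 counts, a replicate block, a fit of only the groups compared, limma 3.58.1 on log2(TPM + 1) and log2(TPM + 0.1), a fold minimum, and leaving out each library. Promoter sequences are from RefSeq (GRCh38.p14), and 12 of 13 windows checked lay at a GENCODE transcript start in the orientation of the gene.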

Additional observations from a re-analysis of the deposited data

Results flagged for a closer look

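The change beyond vehicle, which sets 24 h on the drug against vehicle at 24 h and 6 h on the drug against 0 h, differed from zero in 3754 genes, so the drug effect differed between the times in these genes. Of the 25 genes followed throughout, 16 were among them, against 22.5% of all genes tested. These 25 were chosen with earlier results of these data known, so a high count among them could be foreseen. Upward changes were 2.14 on the log2 scale for NEUROG3, 1.75 for INSM1, 1.98 for PAX4, 0.97 for DLL1 and 1.22 for HES6 among genes of endocrine commitment and Notch. They were 2.87 for TXNIP, 2.87 for CCN1, 2.68 for CCN2, 1.57 for EGR1, 0.65 for SRF, 0.80 for ACTB and 0.41 for ACTG1. Downward changes were -1.65 for PDK4, -2.92 for FST, -1.22 for SPDEF and -2.68 for SLC26A3. The test was an interaction term in edgeR, with 2 vehicle libraries at 24 h and 0 h cells standing in for vehicle at 6 h. The call of ACTG1 was kept in 6 of 22 alternatives, those of PAX4 and INSM1 in 12 and 13, those of NEUROG3, PDK4 and DLL1 in 19, 20 and 21, and those of the other 10 genes in all 22. No group of these samples is large enough for a test of single outlying libraries.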

How the results depend on the processing

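The 6323 genes called between 6 h and 24 h became 865 when a log2 change of at least 1 was also required, and leaving out each library gave 5059 (without replicate 2 of the 6 h group) to 5742. For the change beyond vehicle (3754 genes), the counts were 2214 with a length offset, 2159 on log2(TPM + 1), 2121 on log2(TPM + 0.1) and 682 with the fold minimum, and 2333 to 3675 when leaving out libraries. With the fold minimum, 614 genes were called at 3 h, 1033 at 6 h and 1213 at 24 h against vehicle. Without a fold minimum these counts were 5271, 7230 and 6809, and when leaving out libraries they ran from 4145 to 4720, from 5934 to 6618 and from 4034 to 6424. The 42 genes called between vehicle at 24 h and 0 h were the least stable, with 248 in DESeq2, 8 with RLE size factors, 7 without scaling, 91 without the filter, 87 with a mean of at least 50 counts, 8 with a length offset, 2 and 7 on the TPM scales, 218 with the compared groups alone, 219 without the 12 h libraries (chosen after seeing the data), 7 with the fold minimum and 2 to 9 when leaving out libraries. Early fallers that turned back were 116 of 312 (37.2%) and 92 to 129 when leaving out libraries. They were 178 of 395 without scaling (45.1%), 57 of 130 on log2(TPM + 1) (43.8%) and 94 of 195 with a mean of at least 50 counts (48.2%). With no fold minimum at 3 h they were 1138 of 2461 (46.2%), and with a minimum of 2, 16 of 50 (32%). Early risers that turned back were 159 of 302 (52.6%) and 134 to 157 when leaving out libraries. They were 88 of 127 on log2(TPM + 1) (69.3%) and 128 of 185 with a mean of at least 50 counts (69.2%). With no fold minimum they were 1370 of 2810 (48.8%), and with a minimum of 2, 32 of 62 (51.6%). ID1, not called, had a log2 change of -0.05 without replicate 1 of the 24 h group and of up to 0.38 when other libraries were left out. On log2(TPM + 1), 66.7% of the genes called between 6 h and 24 h were higher, against 50.1%. Samples with the same replicate number at 6 h and 24 h did not deviate together (correlations of 0.0421, -0.0251 and 0.116). With the replicate number as a block 5902 genes were called between 6 h and 24 h, 3149 for the change beyond vehicle and 6 between vehicle and 0 h. The causes of these shifts were not tested. Depth limits low genes most, such as INS at under 1 CPM at 6 h.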

Other observations

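The 3 libraries of 24 h on the drug stood in different orders for different genes. NEUROG3 was at 25.6, 59.8 and 49.5 CPM in replicates 1, 2 and 3, and INSM1 at 34.0, 81.5 and 74.2 CPM. CCN1 was at 38.6, 11.1 and 27.0 CPM in the same libraries, CCN2 at 33.8, 8.32 and 22.6 CPM, and ANKRD1 at 24.5, 8.84 and 21.1 CPM. TXNIP was at 29.5, 71.1 and 42.8 CPM, in the order of NEUROG3. Other genes of the same kinds stood in other orders, such as the YAP target AMOTL2 at 173, 152 and 182 CPM and INS at 0.614, 0.982 and 3.96 CPM. These are values of 3 libraries noticed after the data were seen, and no relation between them was tested.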
